A study of Triticum aestivum with 10 samples.

Results

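The 104 transcripts described here were bright in fertile wheat anthers at 4 lengths and dim or undetected at the fifth, 3.0 mm. They were chosen by their fertile signals alone. After all signals were raised to a floor of 20, a transcript was taken where its lowest fertile signal over the 4 shorter lengths, 1.5 to 2.5 mm, was at least 200 and at least 8 times its fertile signal at 3.0 mm. A further clause, which leaves out transcripts already 4-fold higher at 1.5 and 2.0 mm than at 2.2 and 2.5 mm, removed 0. Of 61179 probe sets on the array (each a group of short probes for 1 transcript), 6052 met the minimum of 200, here called bright probe sets, and 104 of those (1.72%) met the 8-fold rule. The fertile signals therefore describe the selection and are given without a test. The 5 sterile arrays played no part in it.

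The anthers came from BS366, a thermosensitive genic male sterile (TGMS) line of common wheat, *Triticum aestivum*. The line goes back to 1 spontaneous mutant in doubled haploid breeding material. All plants went through a natural vernalization outdoors and then stood at 20 °C under 12 h photoperiods, the fertile condition, and plants of the sterile condition spent 5 days at 10 °C with the same photoperiod. All 10 samples carry the label of the meiosis stage. Total RNA of whole anthers was hybridised to 10 Affymetrix Wheat Genome Arrays, 1 per length and condition, and the values are MAS5 signals, intensities on a linear scale. Lengths are not replicates of one another, and the sources used here do not say whether several plants were pooled. A difference between single arrays therefore has no replicate error. Fewer cells of a type and less RNA per cell cannot be told apart in whole anthers.

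An anther holds the meiocytes that become microspores and pollen, the tapetum, which feeds them and lines the pollen wall before it degenerates, and the outer wall layers. Genes used in meiosis or by the young tapetum are usually silenced as microspores mature, and genes of pollen filling come on later. In cold-sensitive male sterile lines, a cold period near meiosis stops pollen from forming normally.

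No gene is assigned to any of the 104 transcripts by the platform annotation, which pairs 1273 probe sets with genes and covers 6.78% of the bright probe sets. They are called by their probe set identifiers, and no role is given to any of them. The identifiers of 80 begin with Ta., where the number that follows groups probe sets made from related sequence, and those of 24 begin with TaAffx. The 80 carried 56 distinct numbers. A number was shared by more than 1 of them in 17 cases, which hold 41 of the 104, so these are not independent transcripts. The suffix _x_at, for probe sets in which some probes also match other sequences, was carried by 22.1% of the 104 and by 11.1% of all probe sets. In hexaploid wheat such a probe set can sum copies from the A, B and D genomes.

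The arrays had close mean signals, 117.7 to 125.5. The fertile 3.0-mm array had the lowest mean correlation with the other 9 (0.879, against 0.933 to 0.959 for the rest, over log2 signals). It is also the array on which the selection turns, so no result can be given without it. Its ratio of 3′ to 5′ ubiquitin control signal was 0.532, within the range of the other arrays (0.421 to 0.694), and 47.1% of its probe sets lay at the floor, against 45.8% to 49.3% on the others. The spiked hybridisation controls averaged 614 at fertile 2.2 mm, against 173 to 285 elsewhere. The 18S rRNA control read 2833 at sterile 1.5 mm and at most 315 elsewhere. When the same 8-fold rule was turned to each other array within its condition, it found 1 probe set for fertile 2.2 mm, another for fertile 2.5 mm and 0 for the shorter fertile lengths. It found 0 for each of the 5 sterile arrays.

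The fertile signals of the 104 stayed at or above 200 up to 2.5 mm, as the rule required. Their median signal over the first 4 lengths was 637, 715, 1100.3 and 961. At 3.0 mm it was 29.4, with 34 transcripts at the floor and 82 below 50. The lowest earlier signal exceeded the 3.0-mm signal by 8.11- to 224.8-fold, with a median of 14.0-fold, and 22 transcripts passed 32-fold. Where the 3.0-mm signal lies at the floor of 20 the ratio is a lower bound. Over all 6052 bright probe sets the median of this ratio was 0.871, and 2126 were lower at 3.0 mm than at every shorter length.

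The threshold cut through a continuous range. Just inside it lay TaAffx.135168.7.S1_at (8.11-fold), Ta.3605.2.S1_a_at and Ta.16248.1.S1_at (both 8.16-fold). Just outside lay Ta.12704.1.S1_at (7.94-fold), Ta.20672.1.S1_at (7.73-fold) and Ta.3362.1.S1_at (7.62-fold). Other probe sets with the same Ta. numbers as members were 43, of which 18 were bright. Their fertile ratios ran from 1.77 to 7.51 with a median of 5.52, all were lower at fertile 3.0 mm, and 16 of the 18 had their highest sterile signal at 3.0 mm.

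**Figure D1:**
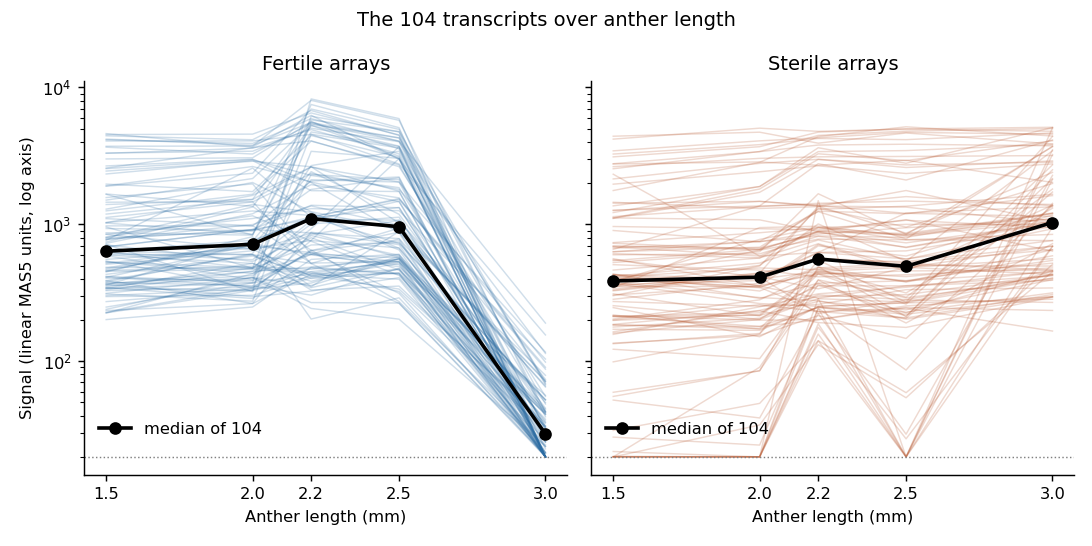
Signal (linear MAS5 units on a log axis) against anther length in mm for the 104 transcripts on the 5 fertile arrays (left) and the 5 sterile arrays (right). Thin lines are transcripts, the black line is their median and the dotted line is the floor of 20. The fertile median ends at 29.4 and the sterile median at 1031.

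In sterile anthers the transcripts were not lost at 3.0 mm. Their median sterile signals from 1.5 to 3.0 mm were 386, 411, 558, 493 and 1031. The lowest signal of any of them at sterile 3.0 mm was 166, and the highest at fertile 3.0 mm was 189.9. None of the 104 fell to 1/2 of its lowest earlier sterile signal, and so none fell to 1/4 or 1/8. Over the bright probe sets 2 of 6052 (0.033%) fell to 1/2. Among the 6755 probe sets with a sterile signal of at least 200 at 1.5 to 2.5 mm, 18 (0.266%) did and 0 fell to 1/4. The lack of such a fall was thus not particular to the 104. The sterile 3.0-mm signal was above all 4 earlier sterile signals in 77 of the 104, between them in 20 and below all of them in 7. It was above all 4 in 35.7% of the bright probe sets.

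The sizes of these differences spread widely. The log2 of sterile 3.0 mm over the lowest earlier sterile signal had a median of 0.96 over the 104 and 0.20 over the bright probe sets. Against the mean log2 of the 4 earlier arrays the median was 0.57, a 1.49-fold difference, with a range of -0.84 to 6.89. Of the 104, 22 were at least 2-fold above their highest earlier sterile signal, 14 at least 4-fold and 3 at least 8-fold. At least 2-fold was reached by 0.859% of the bright probe sets, and their shares at 4-fold and 8-fold were not taken. The whole sterile course stayed within 2-fold for 52 of the 104 (50%) and for 89.7% of the bright probe sets.

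**Figure D2:**
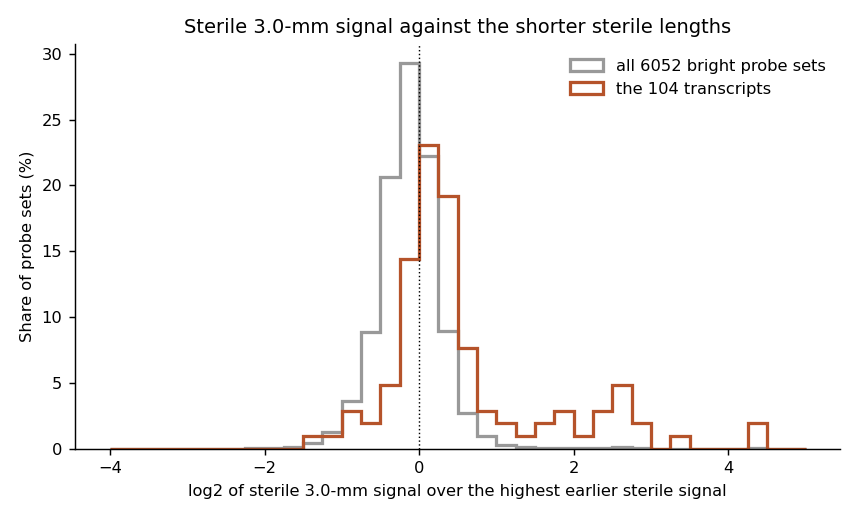
Share of probe sets (percent) by the log2 of the sterile 3.0-mm signal over the highest earlier sterile signal, in steps of 0.25. The grey outline is all 6052 bright probe sets and the brown outline the 104 transcripts, of which 22 lie at 1 or more.

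A slope over the sterile lengths was the one quantity that could be tested without reusing the selecting arrays. The limma test of log2 signal on length in mm used the 5 sterile arrays, had 3 residual degrees of freedom and covered 30590 probe sets. Its p-values set each slope against the scatter of single arrays about a line. That scatter was moderated toward the value for probe sets of similar intensity, so it is partly borrowed from them. After Benjamini-Hochberg adjustment at 0.05, 450 rose with length (1.47%) and 292 fell (0.955%). Those shares are over all probe sets tested, many of them dimmer than the bright probe sets, for which no share was taken. Among the 104, all tested, 32 rose and 1 fell. At an unadjusted p under 0.05 these were 66 and 4, against 9.35% and 9.16% of all probe sets tested. The slope was above 0 for 91 of the 104, and its median was 0.61 log2 units per mm against -0.02 over all probe sets tested. The calls rest on few arrays. Without the sterile 3.0-mm array limma called 0 of the 104. At an unadjusted p under 0.05, 43 rose and 5 fell, against 1647 and 1977 of the 30590 tested. Without the 1.5-mm array limma called 1 of the 104 as rising and 0 as falling, and 26 and 25 over all tested. Without the 2.0-mm array it called 17 of the 104 as rising and 0 as falling, and 186 and 92 over all tested. Without the filter on low values limma also called 0 of the 104. Here 50 rose and 2 fell at an unadjusted p under 0.05, against 2517 and 2684 of the 61179 tested. With an untrended prior variance it called 0 of the 104 as well. Then 60 rose and 2 fell at an unadjusted p under 0.05, against 2646 and 2476 of the 30590 tested. A floor of 40, at which the filter removed nothing, left 0 called over 61179 probe sets. With the 30590 probe sets of the first test kept it still left 0. In that run 49 of the 104 rose and 2 fell at an unadjusted p under 0.05, against 2150 and 2360 of those 30590. The members that passed include several with the same Ta. number.

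The brightest transcripts kept a high signal on every sterile array. Ta.15955.1.S1_a_at, which had the largest fertile ratio (at least 224.8-fold), read 4526, 4561, 6511 and 4497 at fertile 1.5 to 2.5 mm and stood at the floor at 3.0 mm. In sterile anthers it read 3111, 3690.3, 4717, 4975 and 5118 from 1.5 to 3.0 mm. The sterile values are thus high on all 5 arrays and overlap the 4 earlier fertile values, and only the fertile 3.0-mm array is low. Its sterile slope was 0.51 ± 0.12 (SE, adjusted p = 0.058 in limma, 5 arrays). Ta.15955.1.S1_x_at, with the same number, had a slope of 0.67 ± 0.13 and passed (adjusted p = 0.035, limma). Ta.15955.2.S1_a_at read 3317, 3420.4, 5037, 4012 and 30.9 on the fertile arrays and 2771, 3395, 3795, 3848 and 3746 on the sterile ones. Ta.15955.3.S1_x_at and Ta.3536.1.S1_at were alike in course, with sterile ranges of 3261 to 4653 and 3442 to 4697 and fertile 3.0-mm signals of 67.5 and 70.8. For these last 3 probe sets the slope did not pass (adjusted p from 0.13 to 0.22, limma).

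Another bright group climbed through the sterile lengths. Ta.15818.1.S1_at read 3718, 3734, 8046, 5750.4 and 39.3 on the fertile arrays. On the sterile arrays it read 1365, 1888, 3625, 2793 and 5096, so that the shortest sterile anthers lay below the fertile range of 1.5 to 2.5 mm and the 3.0-mm ones within it. Its slope was 1.23 ± 0.20 log2 units per mm (SE, adjusted p = 0.021, limma over 5 arrays). Ta.23086.1.S1_at followed the same course, with 3003, 3062, 5599, 3564 and 25.8 in fertile anthers and 1114, 1812, 3276, 2922 and 4080.0 in sterile ones. Ta.23091.1.S1_at went from 1219 at sterile 1.5 mm to 3838 at sterile 3.0 mm and from 3304 to 22.9 between the same fertile lengths. Slopes of 1.24 ± 0.19 and 1.15 ± 0.20 passed for both (adjusted p = 0.020 and 0.026, limma). In each of the 3 the sterile 3.0-mm signal was the highest of the sterile series.

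**Figure D3:**
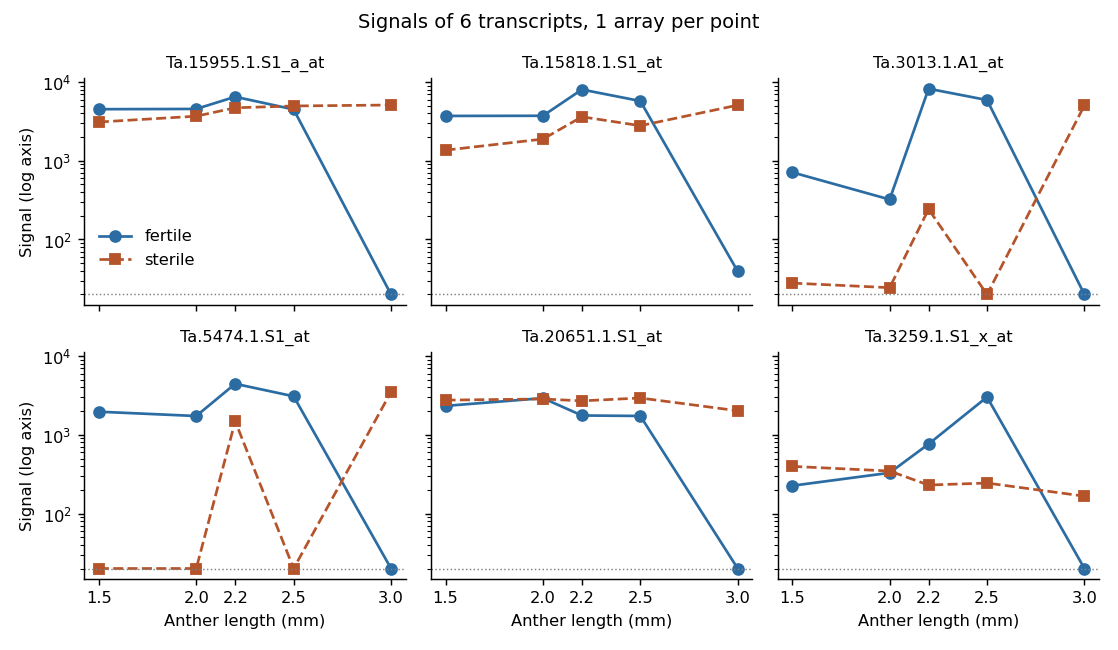
Signal (log axis) against anther length in mm for 6 of the 104 transcripts, with fertile arrays as blue circles and sterile arrays as brown squares, 1 array per point. Fertile 3.0 mm is the lowest fertile point in every panel, while the sterile 3.0-mm point ranges from 166 for Ta.3259.1.S1_x_at to 5118 for Ta.15955.1.S1_a_at.

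The steepest sterile slopes belonged to transcripts that were bright in fertile anthers from 1.5 mm on but dim in short sterile ones. A sterile 1.5-mm signal under 100, a limit set after the values were seen, held for 15 of the 104 and for 0.512% of the bright probe sets, 31 in number. Over the sterile lengths, in rising order, the medians of these 15 were 20.2, 24.4, 242.5, 29.2 and 1422. On the fertile arrays their medians were 622, 482, 2117, 2036 and 20.0. Each of the 15 was higher at sterile 2.2 mm than at both sterile 2.0 and 2.5 mm, as were 62 of the 104 in all and 34.1% of the bright probe sets, and each had its highest sterile signal at 3.0 mm. From sterile 2.5 to 3.0 mm they differed by 3.80- to 253-fold, with a median of 25.6-fold, where a 2.5-mm signal at the floor (6 of 15) makes the fold a lower bound. Over the same sterile lengths the 18S rRNA control read 2833, 50.1, 39.7, 134.7 and 32.3. Its part in the sterile signals of these transcripts was not tested. The peak at sterile 2.2 mm is 1 array, and no replicate bears on it.

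Ta.3013.1.A1_at stood furthest above its earlier sterile signals at 3.0 mm among the 104. It read 714, 322, 8242, 5920.2 and 20 on the fertile arrays from 1.5 to 3.0 mm, and 27.9, 24.4, 242.5, 20 and 5063 on the sterile ones. The low array was thus 3.0 mm in fertile anthers, while in sterile anthers every array but 3.0 mm was low. Its sterile 3.0-mm signal was 20.9-fold above the highest earlier sterile signal. TaAffx.93253.1.A1_at had the same shape, with 590, 393, 6161, 4748 and 20 in fertile anthers and 20, 20, 157.9, 20 and 3236 in sterile ones, a 20.5-fold difference. Neither slope passed (4.39 ± 1.35, adjusted p = 0.12, and 4.36 ± 1.21, adjusted p = 0.092, limma).

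Of the other 3 transcripts furthest above their highest earlier sterile signal, Ta.11769.2.S1_at passed the trend test. Its sterile signals were 134, 159.5, 548, 269.9 and 4387 and its fertile ones 1657, 835, 7504, 5083 and 20, with a slope of 3.15 ± 0.60 (adjusted p = 0.033, limma). TaAffx.9624.1.S1_at read 52.0, 38.5, 223, 29.3 and 2279 in sterile anthers, and TaAffx.93353.1.S1_at read 20, 20, 286, 20 and 2126. Both lay at the floor at fertile 3.0 mm and neither slope passed (adjusted p = 0.16 and 0.12, limma). Ta.5474.1.S1_at, singled out after its values were seen, showed the peak at 2.2 mm most clearly. It read 20, 20, 1488, 20 and 3506 in sterile anthers, against 1967, 1734, 4453, 3088 and 20 in fertile ones. A pair of probe sets with the number Ta.26002, also singled out afterwards, behaved alike, with sterile slopes of 3.46 and 4.05 that passed (adjusted p = 0.022 and 0.030, limma).

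The 16 bright probe sets that were equally dim at sterile 1.5 mm but did not meet the 8-fold rule shared the sterile course. All 16 were higher at sterile 2.2 mm than at both 2.0 and 2.5 mm, and 14 had their highest sterile signal at 3.0 mm. Their fertile ratios ran from 0.060 to 6.63, so in some the fertile 3.0-mm signal was above the lowest earlier one.

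**Figure D4:**
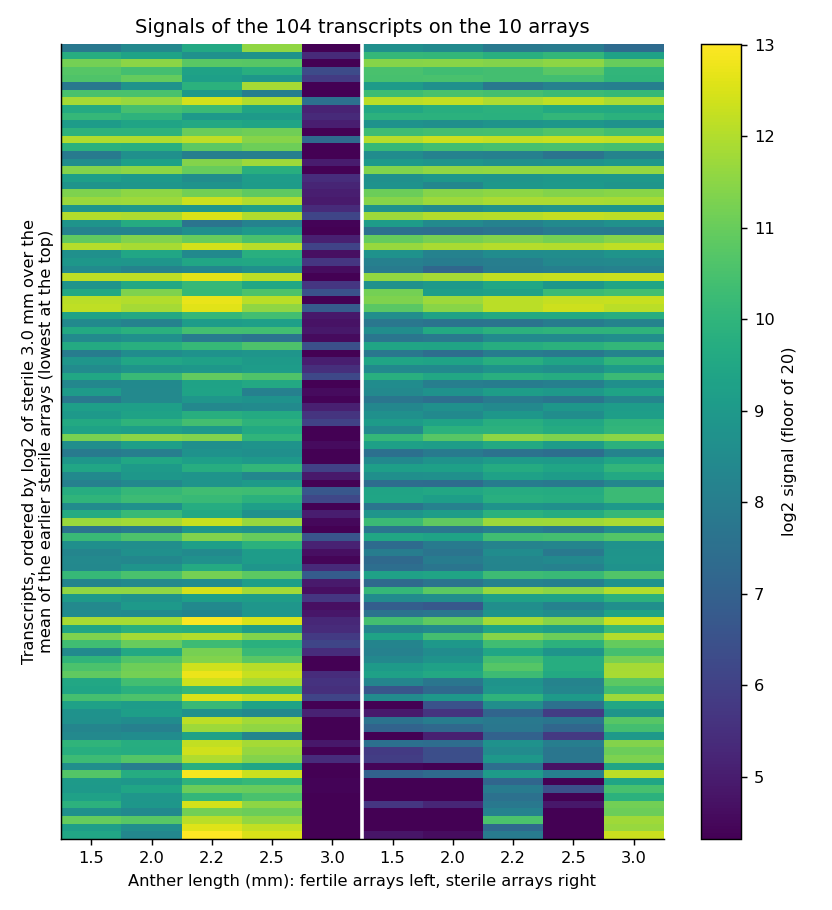
log2 signal (floor of 20, colour scale) of the 104 transcripts (rows) on the 10 arrays (columns, anther length in mm, fertile left of the white line and sterile right). Rows run from the lowest log2 difference between sterile 3.0 mm and the mean of the earlier sterile arrays (-0.84, top) to the highest (6.89, bottom). The 15 transcripts under 100 at sterile 1.5 mm lie toward the bottom, with some brighter ones among them.

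A few transcripts were lower at sterile 3.0 mm than on the shorter sterile arrays, by small amounts. The largest fall was 1.39-fold below the lowest earlier signal, in Ta.6670.1.A1_at, which read 1115, 1078, 885, 1082 and 637 in sterile anthers and 845, 657, 419, 441 and 41.1 in fertile ones. Ta.3259.1.S1_x_at was the 1 transcript with a falling slope that passed (-0.85 ± 0.16, adjusted p = 0.033, limma), with sterile signals of 397, 347, 230.0, 244 and 166. In fertile anthers it had moved the other way before 3.0 mm, from 225 at 1.5 mm to 3022 at 2.5 mm, and then lay at the floor. Ta.3259.1.S1_at, with the same number, read 551, 412, 223, 280.1 and 269 on the sterile arrays, so its sterile 3.0-mm signal was not its lowest.

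The other 3 of the 5 largest falls were in transcripts that stayed bright. Ta.20651.1.S1_at read 2333, 2926, 1762, 1736 and 20 in fertile anthers and 2761, 2856, 2701, 2938 and 2023 in sterile ones. TaAffx.94339.1.S1_at went from 1426 to 1020.2 between sterile 1.5 and 3.0 mm and from 1569 to 56.3 between the same fertile lengths. Ta.16248.1.S1_at, also just inside the threshold, went from 1449 to 1042 and from 1666 to 78.9. None of their slopes, nor that of Ta.6670.1.A1_at, passed (adjusted p from 0.15 to 0.60, limma). At 3.0 mm these 4 were still at least 13.2-fold brighter in sterile than in fertile anthers, and at least 101-fold in Ta.20651.1.S1_at, whose fertile signal lay at the floor.

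Of the probe sets nearest the threshold, TaAffx.135168.7.S1_at had sterile signals of 178, 206, 305, 282 and 426, and its slope of 0.84 ± 0.16 passed (adjusted p = 0.033, limma). Ta.3605.2.S1_a_at read 669.9, 748, 822, 803 and 1204 and did not pass (adjusted p = 0.065, limma). Members with 1 Ta. number mostly behaved alike in sterile anthers. In 14 of the 17 shared numbers all members lay on the same side of their highest earlier sterile signal at 3.0 mm, and the spread within a number of the log2 difference from the earlier mean had a median of 0.21 and a largest value of 0.94, in Ta.23086.

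The course before 3.0 mm differed among the transcripts in fertile anthers too. The fertile mean log2 signal at 2.2 and 2.5 mm was at least 2-fold above that at 1.5 and 2.0 mm in 27, at least 2-fold below it in 4 and in between in 73. The 27 that had gone up in fertile anthers had medians of 184, 173, 286, 237.5 and 1722 over the sterile lengths, and 19 of them were at least 2-fold above their highest earlier sterile signal at 3.0 mm. For the 73 in between the sterile medians were 417.5, 496, 721.5, 639.7 and 928, and 3 were at least 2-fold above. For the 4 that had gone down they were 1344, 1472, 1364, 1269.7 and 1081, and 0 were. Matching counts over the bright probe sets were not taken, so these counts are not read as a trait of the 104. Across the 104 the fertile difference and the sterile 3.0-mm difference had a Pearson r of 0.63, and across the 6052 bright probe sets 0.62. The points share the same 10 arrays and many share a sequence, so this is a description, and it is not particular to the 104.

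**Figure D5:**
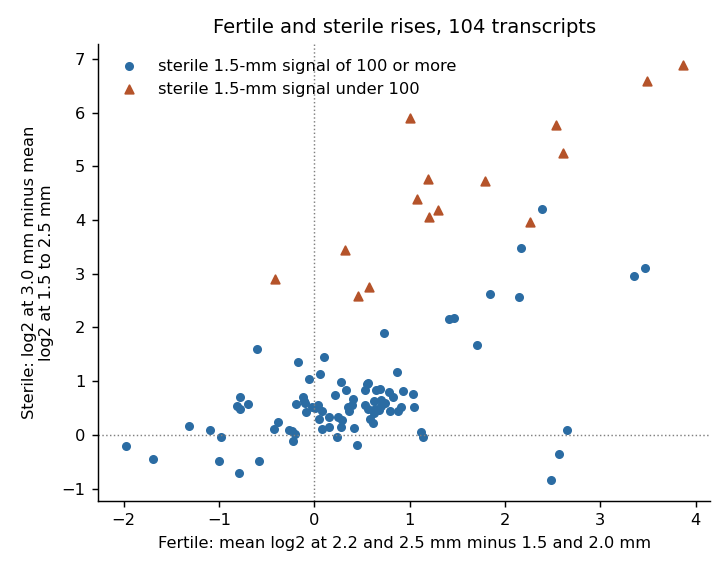
For each of the 104 transcripts, the fertile mean log2 signal at 2.2 and 2.5 mm minus that at 1.5 and 2.0 mm (x axis, log2 units) and the sterile log2 signal at 3.0 mm minus the mean of 1.5 to 2.5 mm (y axis, log2 units). Brown triangles are the 15 transcripts under 100 at sterile 1.5 mm, and r over all points is 0.63.

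At equal length the transcripts were mostly lower in sterile anthers before 3.0 mm. At least 2-fold lower were 36 of the 104 at 1.5 mm (3.54% of the bright probe sets), 37 at 2.0 mm (4.82%), 37 at 2.2 mm (4.87%) and 42 at 2.5 mm (6.69%). At least 2-fold higher were 2, 0, 4 and 7. The share over the bright probe sets was not taken for these counts, so they cannot set the 104 apart. The median ratio of sterile to fertile signal was 0.627, 0.608, 0.665 and 0.658 at these lengths over the 104, and 1.02, 0.931, 1.09 and 1.01 over the bright probe sets. The fertile arrays also chose the transcripts, so these ratios have no test. At 3.0 mm all 104 were at least 2-fold higher in sterile anthers, by 6.57- to at least 256-fold with a median of 26.7-fold (lower bounds for the 34 at the fertile floor), as were 14.4% of the bright probe sets, and here the rule itself had lowered the fertile value.

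The sterile 3.0-mm signals of the 104 were also set beside each fertile array, as a description. The signal was within 2-fold of the fertile 1.5-mm signal for 86 transcripts, of the 2.0-mm signal for 90, of the 2.2-mm signal for 90, of the 2.5-mm signal for 84 and of the 3.0-mm signal, which the rule had held low, for 0. Over the bright probe sets these shares were 97.3%, 98.2%, 95.4%, 95.9% and 81.2%, so closeness to the earlier fertile arrays was not particular to the 104. As a root mean square log2 distance over the 104, the values were 0.83, 0.90, 0.73, 0.91 and 5.21 in the same order, nearest at fertile 2.2 mm. Over the bright probe sets the same distances were 0.41, 0.38, 0.50, 0.49 and 1.11, nearest at fertile 2.0 mm. The sterile 2.2-mm array lay nearest fertile 1.5 mm over the 104 (0.67), while the sterile 1.5-, 2.0- and 2.5-mm arrays lay 1.93, 1.79 and 1.54 from their nearest fertile array, which was fertile 2.0 mm for 1.5 and 2.5 mm and equally fertile 1.5 and 2.0 mm for 2.0 mm.

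None of the cell marker probe sets met the 8-fold rule. The 4 probe sets of TaRAFTIN1A and TaRAFTIN1B, tapetum genes whose proteins go to the pollen wall, had their highest summed fertile signal at 3.0 mm, with sums of 5494, 7909, 16609, 14318 and 19133 over the fertile lengths and 1826, 1946, 5036, 3482 and 9189 over the sterile ones. The 20 probe sets of H2A and H2B histones and Hmgb3, a chromatin protein, marking dividing cells, summed to 37683, 40745.9, 28659, 24471 and 12253 in fertile and 48897, 49665, 42816, 46181 and 32102 in sterile anthers. Of the 18 bright ones 17 were lower at fertile 3.0 mm than at every shorter length, by at most 3.74-fold. The 34 probe sets of 5 photosynthesis genes, which mark the green anther wall, summed to 14356 to 26054 in fertile and 12641 to 17930.3 in sterile anthers, and the 6 bright ones were all above their lowest earlier signal at fertile 3.0 mm. The 10 tubulin probe sets, for the subunits of microtubules, summed to 14747 to 18436 in fertile and 15653 to 19493 in sterile anthers. The part of these cells in the course of the 104 was not tested.

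Annotated probe sets came close to the rule in 7 cases of 410 bright ones, with fertile ratios of 3.17 to 4.72 (picked after their values were seen). The largest ratio, 4.72, was that of LOC542773, whose sterile signals were 892, 826, 774.5, 636.5 and 597. LOC542778, with a ratio of 3.90, read 901, 925, 1389, 1045.0 and 3825 in sterile anthers, and LOC543362 (3.17) read 438.5, 546, 821, 614 and 1301, so both had their highest sterile signal at 3.0 mm. The other 4 probe sets belonged to H2A-2, H2A-3 and H2A-9, core histones that package newly made DNA. H2A-2 read 1231, 809.5, 424, 267 and 71.5 in fertile anthers and 1084, 1101, 918, 1134 and 685 in sterile ones, with its lowest signal at 3.0 mm in both series, 3.74-fold below the lowest earlier array in fertile anthers. The array's control probe sets include G-6-PDH, a glucose-6-phosphate dehydrogenase of the pentose phosphate pathway. It was lowest at 3.0 mm in fertile anthers and highest at 3.0 mm in sterile ones. Its 3′ probe set read 1567, 1492, 4237, 3250 and 277 in fertile and 403, 443, 703, 502 and 2792 in sterile anthers, and the 3 probe sets fell 4.69- to 5.39-fold at fertile 3.0 mm. At sterile 3.0 mm they stood 3.57- to 4.24-fold above the highest earlier sterile signal. Only 22 of the 104 stood at least 2-fold above theirs.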

How the data were processed

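The deposited values are intensities, MAS5 signals computed per probe set by the authors on a linear scale, scaled per array and without log. The sources used here give no MAS5 version. From the table, 111 control probe sets were left out, signals were raised to 20 and log2 was taken. Precision is limited by how few arrays there were, and depth does not apply to arrays.

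The trend over the 5 sterile arrays was tested with limma 3.58.1 in R 4.3.3 (lmFit, eBayes with an intensity trend, two-sided, Benjamini-Hochberg) over probe sets at or above the median mean log2. The script was tested on simulated data. Counts used Python 3.11.15, numpy 2.4.6 and pandas 2.3.3. Names came from the platform annotation of 1273 probe sets, updated through RefSeq gene records for the IWGSC CS RefSeq v2.1 assembly, from which no coordinates are given. Sequences were not used here.

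The members, lists and alternatives were chosen with earlier results of these data known. Transcripts named are the 5 with the largest fertile ratio, the 5 brightest, the 5 with the largest sterile falls and rises and the 3 on each side of the threshold.

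The alternatives were quantile normalization, median centring, other floors, folds, minimum signals, filters and references, rank of length, an untrended variance and arrays left out.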

Additional observations from a re-analysis of the deposited data

Results flagged for a closer look

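In 77 of the 104 transcripts the fertile 3.0-mm signal was below every shorter fertile length while the sterile 3.0-mm signal was above every shorter sterile length. The difference between conditions was not tested, and the fertile side of it was fixed by the selection.

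Among 26 groups of 5 arrays screened for a value far from the others, 3 had one. Chance gives about 1 in 20 for groups chosen without regard to their values. The transcripts found here were named for a low sterile 3.0-mm signal, so that rate does not apply to them. Ta.20651.1.S1_at had its sterile 3.0-mm signal (2023) below the other 4 (2701 to 2938), a gap of 0.774 of its log2 range. TaAffx.94339.1.S1_at had its sterile 3.0-mm signal (1020.2) below the other 4 (1336 to 1473), a gap of 0.733. The hybridisation controls were high on the fertile 2.2-mm array (614, against 227 to 285 on the other fertile arrays), a gap of 0.771. Of the 111 transcripts chosen without that array, 79 had their highest sterile signal at 3.0 mm.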

How the results depend on the processing

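The number of transcripts chosen was 224 at 4-fold, 46 at 16-fold and 64 with a minimum signal of 400, and 105 to 129 with 1 fertile length left out. Quantile normalization, median centring, floors of 10 and 40, a minimum of 100 and no early clause gave 83 to 114. The count falling to 1/4 at sterile 3.0 mm was 0 under every alternative run. The median log2 difference of 0.96 was 0.57 against the mean of the earlier arrays, 0.47 against sterile 2.5 mm alone and 0.78 to 0.96 with 1 sterile length left out. Highest at sterile 3.0 mm were 74 to 83 transcripts, and at least 2-fold above were 22 to 26. The counts highest or 2-fold above at sterile 3.0 mm, other floors for sterile 3.0 mm, members chosen without the fertile 2.2-mm array, the trend alternatives for rising transcripts and a floor of 40 with the tested probe sets kept were added after seeing the data.

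The trend test was the least stable result. A floor of 10 called 334 probe sets in all, with 17 of the 104 rising and 0 falling. No filter and an untrended variance each called 0 in all, and so did a floor of 40, both with the filter made void by it and with the 30590 probe sets kept. With 1 sterile array left out, 0 to 1115 were called in all, with 0 to 43 of the 104 rising and 0 to 2 falling. The totals were 51 without the 1.5-mm array, 278 without 2.0 mm, 1115 without 2.5 mm and 0 without 3.0 mm. The 7 transcripts chosen by the naming rule whose slope passed all lost the call with a floor of 40, no filter, an untrended variance or without the sterile 1.5- or 3.0-mm array. The cause was not tested. No paired analysis was possible because the one test uses sterile arrays alone, and the fertile arrays of the same lengths chose the transcripts.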
